A study of Mus musculus with 6 samples.

Results

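The mitochondrial carrier family Slc25 was examined in livers of Mettl14f/f mice on a high-fat diet (HFD). Its members were taken from the deposited gene table by a symbol that starts with Slc25a, together with the uncoupling proteins Ucp1, Ucp2 and Ucp3. That gave 48 of the 21362 genes in the table. Of these, 45 had a count in at least 1 library, 39 passed the filter on low counts and were tested, and 9 were not tested.

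Bulk RNA-seq was performed on 6 livers, 3 from AAV8-TBG-GFP mice and 3 from AAV8-TBG-Cre mice. All were Mettl14f/f males that were put on HFD at 8 weeks of age, received the vector by tail vein after 10 weeks of HFD, and were sampled 8 weeks after that. The floxed allele and the diet were thus shared by both groups, and the AAV8-TBG-GFP mice, labelled WT, differed from the AAV8-TBG-Cre mice, labelled METTL14 KO, by the vector. The TBG promoter is active in hepatocytes, so Kupffer cells, cholangiocytes, stellate cells and endothelial cells of the AAV8-TBG-Cre livers keep the floxed gene. The comparison asks how hepatic Mettl14 deletion in adult obese mice alters liver transcripts, here those of the carriers.

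Slc25 proteins sit, with few exceptions, in the inner mitochondrial membrane and exchange metabolites, nucleotides, cofactors and ions between cytosol and matrix. ADP/ATP and phosphate carriers serve ATP synthesis, and the aspartate/glutamate, malate and citrate carriers link mitochondria to gluconeogenesis, urea synthesis and lipogenesis in hepatocytes. Of the uncoupling proteins, Ucp1 lets protons leak back into the matrix. Other members bring coenzyme A (CoA), NAD, iron or glutathione to the enzymes of the matrix.

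The libraries held 20356440 to 21010508 expected counts. Expected counts are estimates of the number of fragments per transcript, which were summed per gene. CPM below are TMM-normalized counts scaled to library size, and FPKM are values per transcript length, the scale on which levels of different genes are compared. Mettl14, the targeted gene, stood at 6.30, 6.43 and 5.81 CPM in the AAV8-TBG-GFP livers (always in the order of their replicate numbers) and at 4.96, 5.38 and 4.86 CPM in the AAV8-TBG-Cre livers. These ranges did not overlap, but the difference did not pass the test (log2 fold change −0.29 ± 0.15 SE, edgeR adjusted p = 0.337). In FPKM, Mettl14 stood at 2.31, 2.31 and 2.01 against 1.92, 2.40 and 1.82, so the groups overlapped on that scale and AAV8-TBG-Cre replicate 2 was the highest of the 6 livers. Values summed per gene do not measure the loss of single exons. By immunoblot, the paper reported much less METTL14 protein in livers of HFD males given AAV8-TBG-Cre, at an earlier time after the vector. Summed FPKM of 8 hepatocyte markers ranged from 44172 to 53376 in AAV8-TBG-GFP and from 46866 to 51287 in AAV8-TBG-Cre livers. Most of that sum was Alb, and of the 8 genes Cps1 was called higher (log2 fold change 0.74) and Ttr lower (−0.57).

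In control livers the family was dominated by a few members. Slc25a47, a carrier found mainly in hepatocytes, had the highest mean at 372 ± 98.2 FPKM (SD, n = 3), with 405, 449 and 261 FPKM in the 3 AAV8-TBG-GFP livers. Slc25a39, a carrier needed for mitochondrial glutathione, had 278, 270 and 299 FPKM, and Slc25a5, the widely expressed ADP/ATP carrier ANT2, had 264, 258 and 240 FPKM. The level of Slc25a47 therefore varied more from liver to liver than those of the other 2, and its range overlapped that of Slc25a39. Slc25a3, the phosphate carrier, followed with 184, 181 and 172 FPKM, then Slc25a1, the citrate carrier that exports acetyl units for lipogenesis, with 152, 133 and 105 FPKM. Slc25a23, a calcium-regulated ATP-Mg/phosphate carrier, had 137, 119 and 130 FPKM. The glutamate carrier Slc25a22 had 83.2, 94.0 and 111 FPKM, and the dicarboxylate carrier Slc25a10 had 86.6, 86.7 and 98.7 FPKM. These 8 members held 71.0 to 74.1% of the summed FPKM of the family in the control livers.

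**Figure D1:**
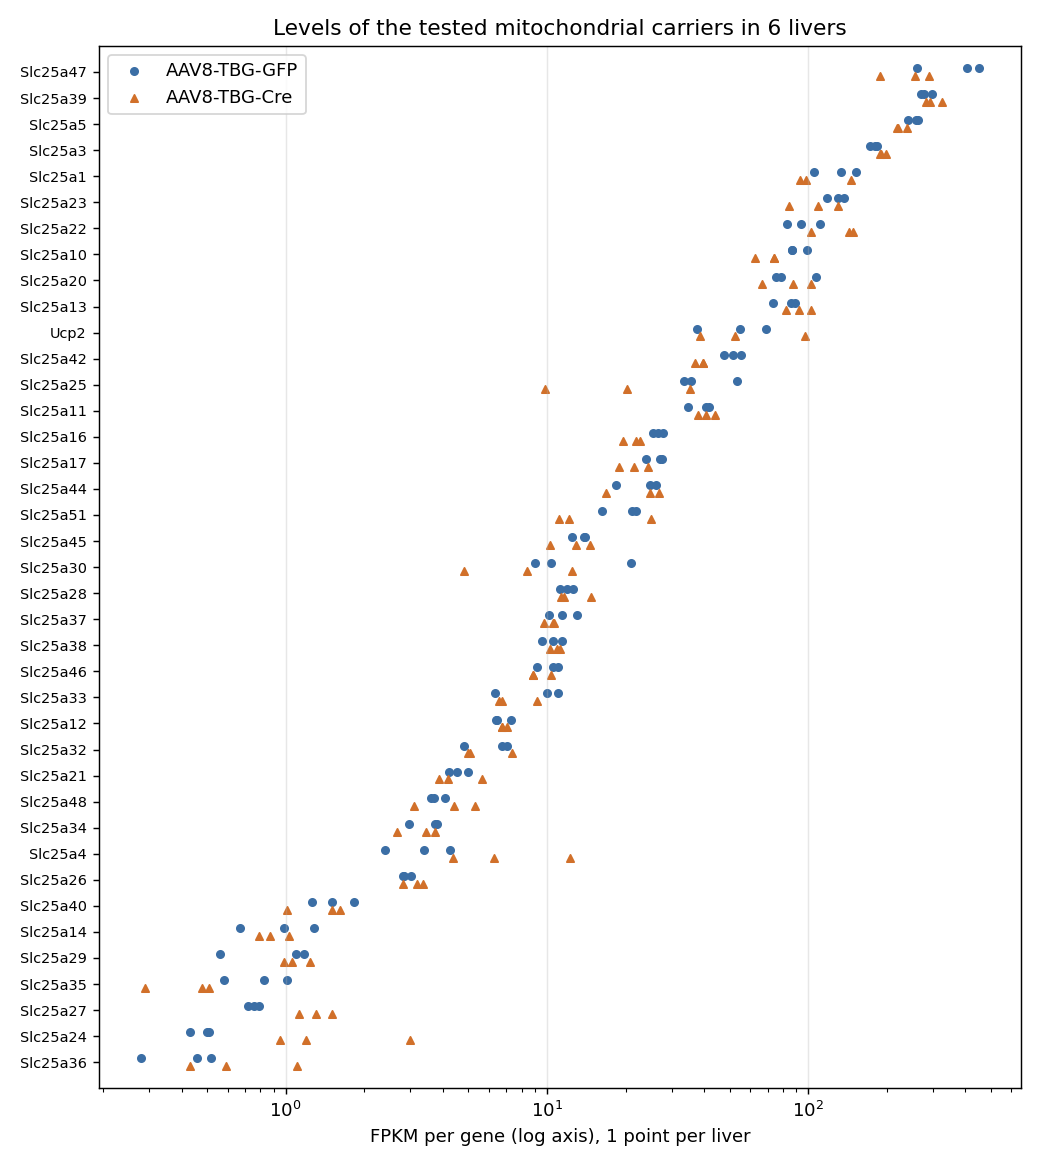
FPKM per gene (log axis) of the 39 tested carriers, ordered by their mean in AAV8-TBG-GFP livers; circles are the 3 AAV8-TBG-GFP livers and triangles the 3 AAV8-TBG-Cre livers. Levels run from over 100 FPKM for Slc25a47 to under 1 FPKM for Slc25a24 and Slc25a36 in the controls.

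Most neighbours in this order could not be separated. Among the 44 pairs of neighbouring members with a count, the control ranges overlapped in 33. Ranges were apart between Slc25a39 and Slc25a5, Slc25a5 and Slc25a3, Slc25a3 and Slc25a1, and Slc25a23 and Slc25a22 at the top of the order. In all, 6 members reached 100 FPKM, 24 reached 10 FPKM and 15 of the 48 stayed under 1 FPKM in the control mean.

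The paralogs that share a substrate differed widely in level. Slc25a13 (citrin, the liver aspartate/glutamate carrier of the urea cycle and the malate-aspartate shuttle) exceeded Slc25a12, its counterpart in brain and muscle, by 12.3 ± 0.995 times in FPKM in the controls (SD, n = 3). Slc25a39 exceeded its paralog Slc25a40 by 190 ± 42.9 times, and Slc25a33 exceeded Slc25a36, both carriers of pyrimidine nucleotides, by 21.9 ± 0.646 times. The mitoferrins, which deliver iron for heme and iron-sulfur clusters, were close to each other, with a ratio of Slc25a28 to Slc25a37 of 1.04 ± 0.109.

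Ucp2 was the most abundant of Ucp1, Ucp2 and Ucp3 in these livers. It had 54.6, 37.6 and 69.0 FPKM in AAV8-TBG-GFP and 38.5, 97.4 and 52.4 FPKM in AAV8-TBG-Cre livers. Ucp3, the muscle form, had 2 to 11 counts per library, and Ucp1, the thermogenic protein of brown fat, had 0 counts in all 6, as did Slc25a41 and Slc25a54. A count of 0 allows up to 3 counts, or 0.143 to 0.147 CPM without TMM scaling, and covers counting error only. The remaining untested members, Slc25a53, Slc25a2, Slc25a18, Slc25a31 and Slc25a43, had a control mean of at most 0.411 CPM. Slc25a2 is a basic amino acid carrier, Slc25a18 the second glutamate carrier and Slc25a31 the ADP/ATP carrier of the testis.

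Between the groups, the tested carriers lay lower in AAV8-TBG-Cre livers more often than higher. At the threshold of the study, an unadjusted p-value under 0.05 with a fold change of at least 1.2, 11 of 39 members were lower (28.2%, against 8.41% of all 13431 genes tested) and 3 were higher (7.69%, against 12.0%). The median log2 fold change of the members was −0.25, against −0.0065 for all genes, and 31 of 39 members were below 0 (79.5%, against 51.0% of all genes). Slc25a10, Slc25a16, Slc25a17, Slc25a23, Slc25a25, Slc25a35, Slc25a37, Slc25a42, Slc25a46, Slc25a47 and Slc25a5 fell. Slc25a4, Slc25a24 and Slc25a27 rose.

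No member reached a Benjamini-Hochberg adjusted p-value under 0.05 in edgeR, where 0.931% of all genes did, and the smallest adjusted p was 0.0599 for Slc25a16. There were 14 members with an unadjusted p under 0.05 in that fit, all of them past the fold of 1.2. By adjusted p, DESeq2 called 4 members (Slc25a10, Slc25a16, Slc25a24 and Slc25a42, with 6.28% of all genes) and limma called 0. Without AAV8-TBG-Cre replicate 1, edgeR called 6 by adjusted p (6.78% of all genes), with 14 lower and 3 higher at the study threshold (12.5% and 14.8% of all genes). Without AAV8-TBG-GFP replicate 2, 6 were lower and 1 higher (5.94% and 9.17% of all genes). Without AAV8-TBG-Cre replicate 2, 6 were lower and 2 higher (5.85% and 8.19% of all genes).

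The split of calls depended on the scale. TMM factors were 0.967, 0.952 and 0.913 in AAV8-TBG-GFP and 1.02, 1.18 and 0.989 in AAV8-TBG-Cre libraries. A higher factor gives a lower CPM, so TMM moved all genes down in AAV8-TBG-Cre relative to AAV8-TBG-GFP. How much of the carrier differences rests on these factors was not tested. On log2(FPKM + 1) with limma, the median of all genes moved to 0.11, and 6 members were lower (3.01% of all genes) and 4 higher (15.5%). With log2(FPKM + 0.1) the counts were again 6 lower (3.1%) and 4 higher (16.4%), and without a filter on FPKM 4 lower (1.97%) and 4 higher (10.9%), so the excess of lower over higher calls was lost there. With log2(FPKM + 1), lower calls were 60% of the calls among members and 16.3% among all genes, against 78.6% and 41.1% in the count fit. The members' median was below 0 on every scale, at −0.052 with log2(FPKM + 1), −0.083 with log2(FPKM + 0.1), −0.028 without a filter on FPKM and −0.19 with upper quartile factors. With those factors 8 members were lower (5.49% of all genes) and 3 higher (14.3%), and 27.7% of the calls among all genes were lower. At a fold of at least 1.5 in the count fit, 4 members were lower (3.03% of all genes) and 3 higher (9.62%). Summed over the family, the carriers held 0.440 ± 0.0130% of the counts in AAV8-TBG-GFP and 0.400 ± 0.0121% in AAV8-TBG-Cre libraries (SD, n = 3; exact two-sided permutation p = 0.1, the smallest that 3 against 3 can give). Their share of summed FPKM was 0.377 ± 0.0122% and 0.363 ± 0.0104% (exact permutation p = 0.3).

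In CPM, the groups did not overlap for 10 members that were lower (13.0% of all genes) and 3 that were higher (14.0%) in AAV8-TBG-Cre. Only Slc25a23, among the 14 that passed the threshold, overlapped in CPM. In FPKM the groups also overlapped for Slc25a17, Slc25a25, Slc25a37, Slc25a46 and Slc25a47. The library names have 2 digits in 3 libraries (AAV8-TBG-GFP replicates 1 and 2, AAV8-TBG-Cre replicate 1) and 4 digits in the other 3, a split that the labels do not explain. With the name form as a covariate, 9 members were lower (8.82% of all genes) and 3 higher (10.6%).

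**Figure D2:**
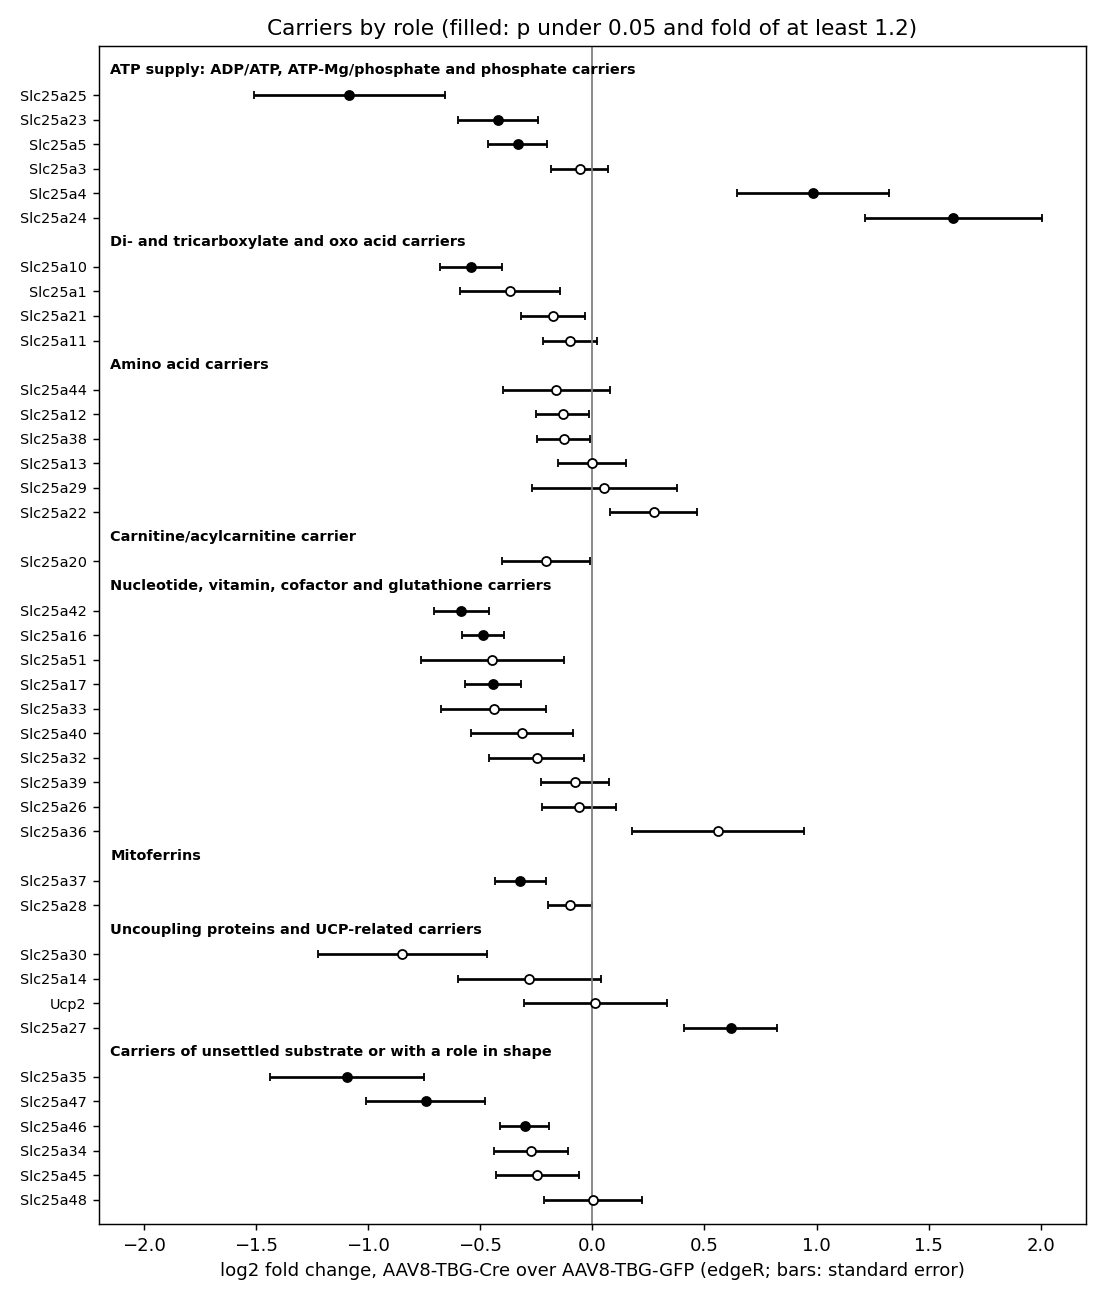
Log2 fold change of AAV8-TBG-Cre over AAV8-TBG-GFP for the 39 tested carriers, grouped by role, from edgeR; bars are standard errors and filled points passed the study threshold. Of 10 carriers of nucleotides, vitamins, cofactors and glutathione, 9 lie below 0 (Slc25a26 and Slc25a39 turn above 0 on the FPKM scale), whereas the 6 carriers of the ATP supply group run from −1.08 to 1.61.

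Among the carriers of nucleotides, vitamins, cofactors and glutathione, 3 of 10 fell (8.41% of all genes), none rose (12.0%), and the median log2 fold change was −0.38, against −0.0065 for all genes. Slc25a42, which imports CoA into the matrix, had 159, 186 and 181 CPM in AAV8-TBG-GFP livers and 115, 107 and 128 CPM in AAV8-TBG-Cre (log2 fold change −0.59 ± 0.12 SE, edgeR adjusted p = 0.0637). All AAV8-TBG-Cre livers lay below all controls, at a mean of 117 ± 10.3 against 175 ± 14.8 CPM (SD, n = 3). Slc25a16, linked to matrix CoA, had 87.7, 92.8 and 88.4 CPM against 67.8, 61.2 and 62.8 CPM (−0.49 ± 0.10, edgeR adjusted p = 0.0599). Its livers were close to each other within each group, with SDs of 2.78 and 3.43 CPM.

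Slc25a17, a peroxisomal carrier of CoA, FAD and NAD and one of the exceptions to the inner membrane location, had 47.6, 47.5 and 43.6 CPM against 39.8, 30.5 and 31.7 CPM (−0.44 ± 0.13, edgeR adjusted p = 0.112). Its highest AAV8-TBG-Cre liver stayed below its lowest control in CPM, but the groups overlapped in FPKM. Slc25a42 and Slc25a16 passed the study threshold under all 16 alternative settings, and Slc25a17 under 13, missing it on the FPKM scale.

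The other 7 carriers of this group did not pass. Slc25a51, which carries NAD, had 102, 99.8 and 80.1 CPM against 110, 46.1 and 50.6 CPM, so AAV8-TBG-Cre replicate 1 lay above the controls and the other 2 below them. Slc25a33 had 19.5, 21.8 and 13.0 CPM against 16.9, 10.7 and 12.4 CPM, and Slc25a36 had 1.47, 1.68 and 0.942 CPM against 1.29, 2.92 and 1.83 CPM. The glutathione carriers overlapped between the groups, with Slc25a39 at 483, 476 and 548 CPM against 462, 418 and 550 CPM and Slc25a40 at 5.23, 4.44 and 3.87 CPM against 4.44, 3.57 and 2.89 CPM. Slc25a32 (folate and FAD) had a log2 fold change of −0.25 ± 0.21, and Slc25a26 (S-adenosylmethionine, the methyl donor) one of −0.06 ± 0.16, with a sign that turned on the FPKM scale.

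The promoters of 3 carriers that fell are shown. One of them holds the most CCAAT boxes of the family, one is annotated for Slc25a47, which had the highest control mean, and one holds a cyclic AMP response element (CRE). Each line gives the 250 bases before a RefSeq transcript start of assembly GRCm38.p6, 5′ to 3′ on the strand of the gene, with CCAAT (or ATTGG on the opposite strand) and TGACGTCA in capitals. They are chr8:70212282-70212531 for Slc25a42 (minus strand), chr12:108850879-108851128 for Slc25a47 (plus strand), and chr2:32424067-32424316 for Slc25a25 (minus strand).
Slc25a42: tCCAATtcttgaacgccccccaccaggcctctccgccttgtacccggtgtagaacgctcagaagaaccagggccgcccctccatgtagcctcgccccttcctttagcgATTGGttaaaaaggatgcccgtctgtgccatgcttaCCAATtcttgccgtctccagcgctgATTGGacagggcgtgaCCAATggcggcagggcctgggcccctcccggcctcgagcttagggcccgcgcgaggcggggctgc
Slc25a47: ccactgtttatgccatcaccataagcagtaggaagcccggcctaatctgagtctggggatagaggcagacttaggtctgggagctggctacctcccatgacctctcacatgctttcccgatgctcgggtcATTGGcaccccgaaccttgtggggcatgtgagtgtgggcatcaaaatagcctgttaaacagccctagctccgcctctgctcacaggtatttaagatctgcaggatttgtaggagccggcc
Slc25a25: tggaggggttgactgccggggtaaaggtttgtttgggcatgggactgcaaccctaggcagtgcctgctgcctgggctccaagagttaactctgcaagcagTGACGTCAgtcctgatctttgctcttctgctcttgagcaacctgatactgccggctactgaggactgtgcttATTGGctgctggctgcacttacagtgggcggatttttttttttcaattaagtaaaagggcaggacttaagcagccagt

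Slc25a42 held 5 CCAAT boxes in this window, Slc25a47 held 1 and Slc25a25 held 1. Slc25a25 is annotated with 3 starts, and this one was the only one with a CRE, 150 bases before the start. The window of Slc25a47 lies inside its annotated gene, which begins at chr12:108849833. Which starts are used in these livers was not tested. RefSeq promoters matched 38 of the 48 members, 47 promoters in all. A CCAAT box was present in 44.7% of them and in 33.8% of all 32851 promoters of the same length, an E-box (CACGTG) in 14.9% and 6.02%, a CRE in 4.26% and 1.55%, and the estrogen-related receptor site AAGGTCA in 2.13% and 4.08%, on either strand. The NRF1 palindrome and the direct repeat of the peroxisome proliferator element were found in 0 of the 47, and in 0.782% and 0.0335% of all promoters. The E-box share rests on 7 promoters and the CRE share on 2. Promoters of nearby starts can hold the same site, as those of Slc25a14 (E-box) and Slc25a23 (CCAAT box) do. The median GC content was 57.2% in the promoters of members and 52.4% in all promoters, and the shares were not adjusted for it. Motifs were searched one by one and some of them can share letters, as the estrogen-related receptor site and the peroxisome proliferator element do, and a match is a description of the letters only.

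The ATP supply group split in both directions. This group holds the ADP/ATP carriers, the phosphate carrier and the ATP-Mg/phosphate carriers that set the adenine nucleotide pool of the matrix. Of 6 tested, 3 fell and 2 rose, against 8.41% and 12.0% of all genes. Slc25a25, an ATP-Mg/phosphate carrier, had 119, 114 and 189 CPM in AAV8-TBG-GFP and 112, 55.4 and 32.2 CPM in AAV8-TBG-Cre livers (−1.08 ± 0.43, edgeR adjusted p = 0.207). The fall lay in AAV8-TBG-Cre replicates 2 and 3. Replicate 1 was just below the lowest control in CPM and inside the control range in FPKM. Within the libraries with 2-digit names the log2 difference was −0.063, and within those with 4-digit names −2.11, with 1 or 2 libraries per group in each. Without AAV8-TBG-GFP replicate 3, AAV8-TBG-Cre replicate 2 or AAV8-TBG-Cre replicate 3 the call was lost, at −0.97 to −0.76.

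Slc25a23 had 483, 425 and 484 CPM against 435, 315 and 291 CPM (−0.42 ± 0.18, edgeR adjusted p = 0.236). Its AAV8-TBG-Cre replicate 1 lay within the range of the controls. Slc25a5, the main ADP/ATP carrier of these livers, had 357, 355 and 344 CPM against 304, 244 and 291 CPM (−0.33 ± 0.13, edgeR adjusted p = 0.206). Its 3 controls agreed within 7.08 CPM (SD), and all AAV8-TBG-Cre livers were lower. For both genes, leaving out any single library other than AAV8-TBG-Cre replicate 1 lost the call, at −0.48 to −0.31 for Slc25a23 and −0.37 to −0.25 for Slc25a5. Over all 16 alternatives, Slc25a23 passed in 5 and Slc25a5 in 7, and neither passed on the FPKM scale. Slc25a3 had 287, 286 and 284 CPM against 279, 242 and 303 CPM, and its difference of −0.06 ± 0.13 turned sign on the FPKM scale.

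Slc25a4, the ADP/ATP carrier ANT1 of heart and skeletal muscle, had 4.98, 4.03 and 2.98 CPM in AAV8-TBG-GFP and 6.97, 11.7 and 5.01 CPM in AAV8-TBG-Cre livers (0.98 ± 0.34, edgeR adjusted p = 0.163). The lowest AAV8-TBG-Cre liver and the highest control were almost level. Slc25a24, a further ATP-Mg/phosphate carrier, had 1.83, 1.53 and 1.88 CPM against 4.01, 8.71 and 3.27 CPM (1.61 ± 0.39, edgeR adjusted p = 0.0853), the largest rise among the tested members in that fit. Its groups were well apart, and it passed the study threshold in all 16 alternatives. The ratio of Slc25a5 to Slc25a4 in FPKM was 61.9, 76.0 and 99.8 in the controls and 37.8, 18.0 and 50.1 in AAV8-TBG-Cre livers, so Slc25a5 stayed by far the more abundant ADP/ATP carrier in each liver. Without AAV8-TBG-GFP replicate 2, AAV8-TBG-GFP replicate 3 or AAV8-TBG-Cre replicate 2 the call of Slc25a4 was lost, at 0.58 to 0.99.

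**Figure D3:**
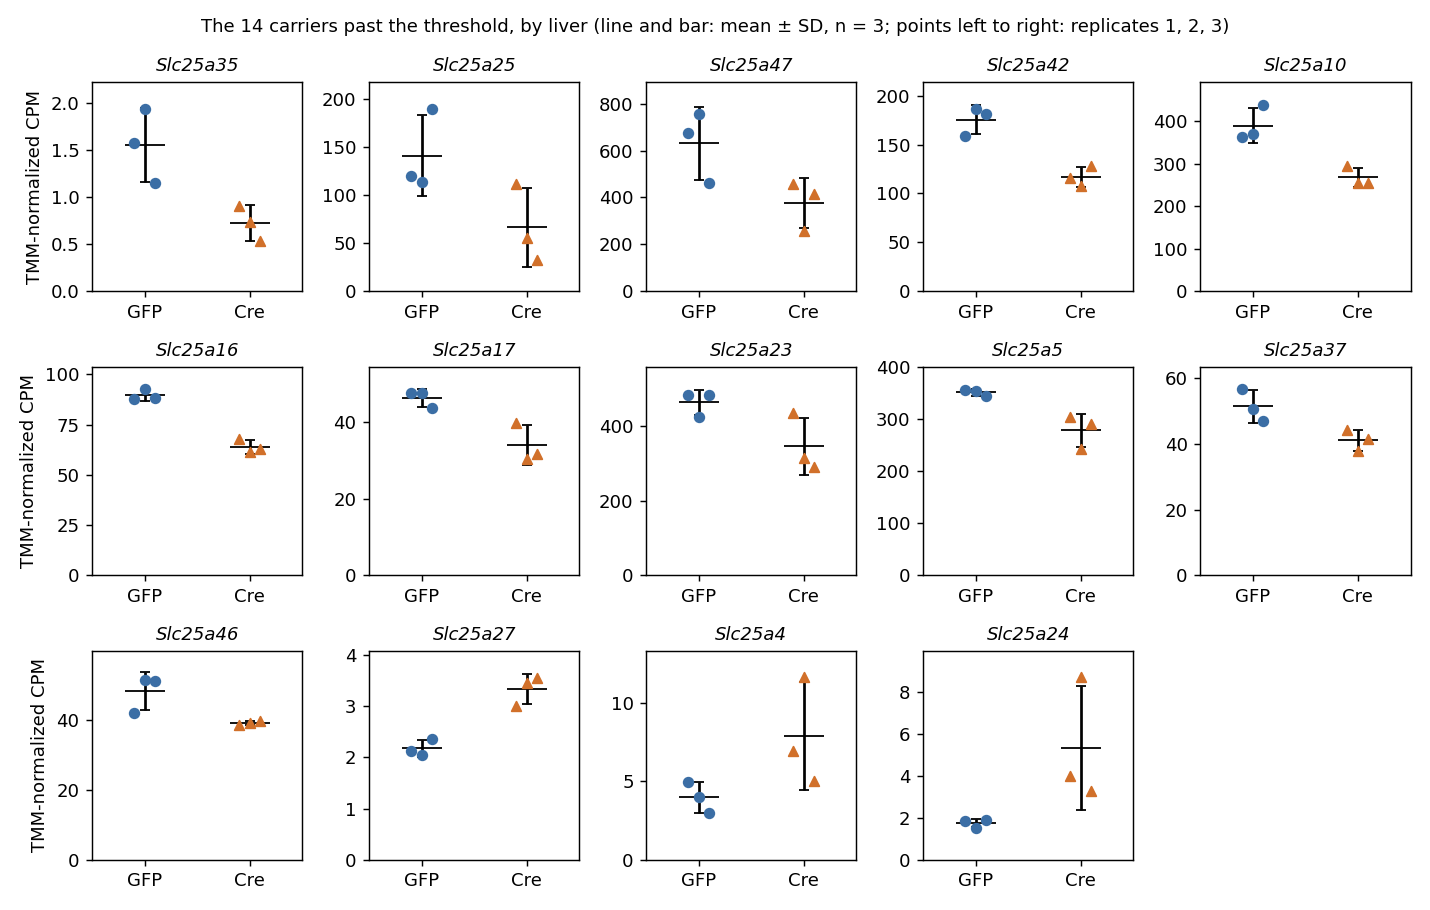
TMM-normalized CPM of the 14 carriers past the study threshold in each liver, with the mean and SD of each group (n = 3); the vertical axes start at 0. The 11 carriers that fell come first, and in Slc25a23 the highest AAV8-TBG-Cre liver reaches into the controls.

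Markers of several, but not all, other cell types moved in the same direction as Slc25a4 and Slc25a24. In bulk liver, more cells of a type and more RNA per cell cannot be told apart, and the same holds for fewer cells and less RNA. Summed FPKM of 8 macrophage and Kupffer cell markers was 86.7 to 109 in AAV8-TBG-GFP and 165, 354 and 164 in the AAV8-TBG-Cre livers, with 6 of 8 genes called higher (12.0% of all genes). The sum of 8 cholangiocyte markers was 36.7 to 74.5 against 237, 434 and 184, with 8 of 8 called higher. That of 8 stellate cell and fibroblast markers was 65.1 to 103 against 117, 288 and 130, with 4 of 8 called higher. Most of the cholangiocyte sum was Spp1 in each liver, at 212, 378 and 152 FPKM in AAV8-TBG-Cre. The largest gene in each liver was Lyz2 in the macrophage sum and Dcn, which was not called, in the stellate cell sum. AAV8-TBG-Cre replicate 2 had the highest sum in each of these 3 lists and the highest level of Slc25a24, Slc25a4, Slc25a36 and Ucp2. Of the less abundant lists, 3 of 4 tested neutrophil markers and 2 of 3 tested T, NK and B cell markers were called higher, and 1 neutrophil marker lower. The 8 endothelial markers summed to 43.6 to 78.1 against 51.4 to 68.7, with Stab2 called lower and all 8 below 0 in the count fit (6 of 8 on the FPKM scale). Summed FPKM of 6 adipocyte markers was 13.5 to 36.8 against 1.97 to 2.34. Of 3 tested, Cidea and Cfd were called lower (8.41% of all genes), at log2 fold changes of −4.34 and −4.75 (edgeR adjusted p = 0.033 and 0.0149). The third tested marker was above 0. With DESeq2, which tested all 6, only 2 were below 0, so the list did not fall as a whole. No defining marker of these lists was at 0 in all livers, and the part of these markers in the changes of the carriers was not tested.

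**Figure D4:**
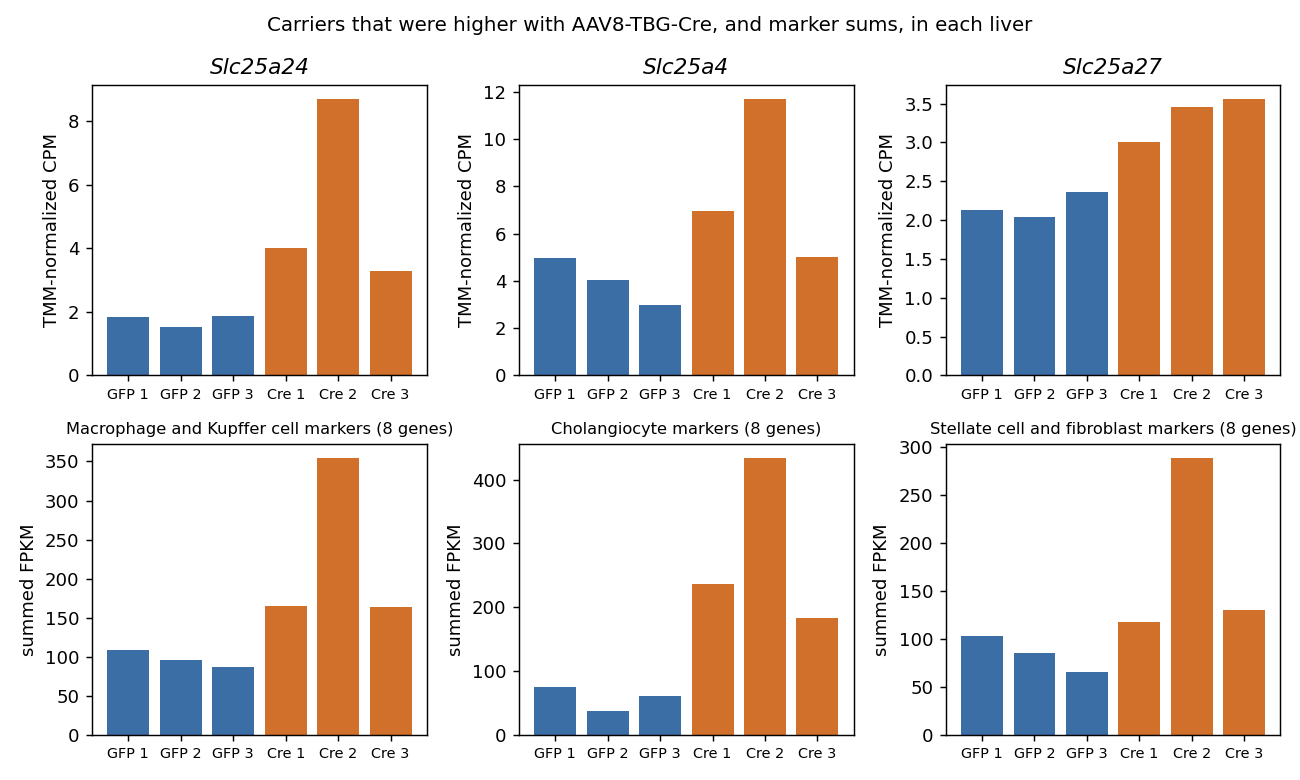
TMM-normalized CPM of the 3 carriers that rose (upper row) and summed FPKM of 3 lists of 8 cell type markers (lower row) in each liver, AAV8-TBG-GFP in blue and AAV8-TBG-Cre in orange. AAV8-TBG-Cre replicate 2 has the highest bar for Slc25a24, Slc25a4 and all 3 marker sums, and replicate 3 has the highest for Slc25a27. Spp1 makes up most of the cholangiocyte sum.

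The carriers of unsettled substrate, or with a role in mitochondrial shape, held 3 of the falls among 6 tested (8.41% of all genes). Slc25a47 had 673, 758 and 460 CPM in AAV8-TBG-GFP and 455, 257 and 416 CPM in AAV8-TBG-Cre livers (−0.74 ± 0.27, edgeR adjusted p = 0.174), a fold of 1.68 lower. The lowest control was only just above the highest AAV8-TBG-Cre liver in CPM, and the groups overlapped in FPKM. Per length, Slc25a47 stood at 245 ± 51.3 FPKM in AAV8-TBG-Cre (SD, n = 3). Slc25a39 stood above it in each AAV8-TBG-Cre liver except the first, with 281, 294 and 325 FPKM against 290, 189 and 256 FPKM. The same order held in AAV8-TBG-GFP replicate 3, with 299 against 261 FPKM, so it was not particular to AAV8-TBG-Cre. The call of Slc25a47 was lost without AAV8-TBG-GFP replicate 1, AAV8-TBG-GFP replicate 2 or AAV8-TBG-Cre replicate 2, at −0.71 to −0.54.

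Slc25a35, a low-level carrier, had 1.58, 1.94 and 1.15 CPM against 0.907, 0.739 and 0.529 CPM (−1.09 ± 0.34, edgeR adjusted p = 0.138). These were 22 to 38 counts against 11 to 19 counts, so counting error was large. Slc25a46, an outer membrane protein that acts in mitochondrial fission and cristae upkeep rather than transport, had 41.9, 51.3 and 51.1 CPM against 38.4, 38.9 and 39.7 CPM (−0.30 ± 0.11, edgeR adjusted p = 0.178). All its AAV8-TBG-Cre livers lay within a narrow band below the controls. Leaving out AAV8-TBG-GFP replicate 2 lost the call of Slc25a35 (−0.91), and leaving out any library other than AAV8-TBG-GFP replicate 1 or AAV8-TBG-Cre replicate 3 lost that of Slc25a46 (−0.30 to −0.25). Slc25a46 passed in 8 of the 16 alternatives and not on the FPKM scale. Slc25a34, Slc25a45 and Slc25a48 did not pass, with log2 fold changes of −0.27 ± 0.17, −0.25 ± 0.18 and 0.0021 ± 0.22.

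Of the 4 carriers of di- and tricarboxylates and oxo acids, 1 fell (8.41% of all genes) and all 4 estimates were below 0 in the count fit. Slc25a10, which exchanges malate and succinate for phosphate, had 362, 369 and 437 CPM in AAV8-TBG-GFP and 294, 254 and 255 CPM in AAV8-TBG-Cre livers (−0.54 ± 0.14, edgeR adjusted p = 0.0882). Each AAV8-TBG-Cre liver was below each control, the mean fold was 1.46 lower, and the call held under all 16 alternatives. Slc25a1 had 266, 237 and 194 CPM against 241, 141 and 159 CPM (−0.37 ± 0.22, edgeR adjusted p = 0.397), with AAV8-TBG-Cre replicate 1 inside the control range. Slc25a11, the malate/oxoglutarate carrier of the malate-aspartate shuttle, and Slc25a21, the oxoadipate carrier, had −0.10 ± 0.12 and −0.17 ± 0.14. The sign of Slc25a11 turned on the FPKM scale.

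None of the 6 tested amino acid carriers passed the threshold in the count fit, and their median log2 fold change was −0.065. Slc25a13 had 280, 296 and 253 CPM in AAV8-TBG-GFP and 255, 247 and 327 CPM in AAV8-TBG-Cre livers, and Slc25a12 had 19.5, 22.5 and 20.7 CPM against 19.5, 16.8 and 20.9 CPM. The estimates were −0.0014 ± 0.15 for Slc25a13 and −0.13 ± 0.12 for Slc25a12, and both turned sign on the FPKM scale. Slc25a22 had 224, 256 and 317 CPM against 260, 314 and 389 CPM (0.27 ± 0.19, edgeR adjusted p = 0.471). On the FPKM scale Slc25a22 passed the study threshold, with 83.2, 94.0 and 111 FPKM against 103, 143 and 149 FPKM and a log2 difference of 0.44 where the median of all genes was 0.11 (limma on log2(FPKM + 1), adjusted p = 0.234). Over the 16 alternatives its adjusted p ran from 0.206 to 0.802.

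The remaining amino acid carriers were Slc25a38 (glycine, used in heme synthesis) with −0.13 ± 0.12, Slc25a44 (branched-chain amino acids) with −0.16 ± 0.24, and Slc25a29 (basic amino acids) with 0.054 ± 0.32. Slc25a20, the carnitine/acylcarnitine carrier that brings long-chain fatty acids in for oxidation, had a log2 fold change of −0.21 ± 0.19 and overlapped between the groups.

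Of the mitoferrins, Slc25a37 fell and Slc25a28 did not pass. Slc25a37, which supplies iron for heme in erythroid cells, had 56.7, 50.5 and 46.8 CPM against 44.1, 37.7 and 41.5 CPM (−0.32 ± 0.11, edgeR adjusted p = 0.169). Slc25a28, the widely expressed form, had 19.3, 20.7 and 19.2 CPM against 17.8, 19.6 and 17.9 CPM (−0.10 ± 0.10, edgeR adjusted p = 0.617). In CPM the highest AAV8-TBG-Cre value was below the lowest control for Slc25a37, and the ranges overlapped for Slc25a28. In FPKM the ranges of Slc25a37 overlapped too. Without AAV8-TBG-GFP replicate 1 or AAV8-TBG-Cre replicate 2 the call of Slc25a37 was lost, at −0.27 to −0.25. It passed in 9 of the 16 alternatives, and was also lost with upper quartile factors, the name form covariate and on the FPKM scale. Summed FPKM of 6 erythroid markers overlapped widely, at 649 to 1272 against 627 to 1819.

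Among the uncoupling proteins and related carriers, 1 of 4 tested rose (12.0% of all genes). Slc25a27 (UCP4, best known from neurons) had 2.13, 2.04 and 2.36 CPM in AAV8-TBG-GFP and 3.01, 3.45 and 3.56 CPM in AAV8-TBG-Cre livers (0.62 ± 0.21, edgeR adjusted p = 0.156). These were 40 to 45 counts against 63 to 84 counts, with no overlap. Its call was lost without AAV8-TBG-GFP replicate 1, AAV8-TBG-GFP replicate 2 or AAV8-TBG-Cre replicate 3, at 0.57 to 0.60. Ucp2 had 89.2, 62.4 and 119 CPM against 59.5, 130 and 83.7 CPM, and the estimate of 0.014 ± 0.32 reached from −0.34 without AAV8-TBG-Cre replicate 2 to 0.26 among the alternatives. Slc25a30 had 15.8, 37.7 and 19.3 CPM against 14.0, 18.1 and 8.28 CPM (−0.85 ± 0.38, edgeR adjusted p = 0.254). It did not pass the study threshold in the main fit but was lower at it in 5 of the 16 alternatives, DESeq2 among them. Slc25a14 had −0.28 ± 0.32.

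Transcripts of the same carrier were compared for the genes with 2 or more RefSeq transcripts and at least 100 counts in every library, without a test. Of these 5 carriers, 2 had a transcript whose share did not overlap between the groups, against 16.9% of the 2860 genes of that kind. For Slc25a13, the transcript of 3133 nucleotides, which is 3 nucleotides longer than the other, held 19.0, 21.2 and 17.2% of the counts in AAV8-TBG-GFP and 31.6, 23.2 and 22.7% in AAV8-TBG-Cre livers. For Slc25a22, the transcript of 2805 nucleotides held 9.25, 6.28 and 7.40% against 5.15, 5.03 and 4.41%. Both shares did not overlap between the groups, and both rest on how fragments that fit either transcript were divided. The transcripts of Slc25a22 differ by 242 nucleotides in length. Slc25a25 came mostly from its transcript of 3195 nucleotides, with 95.1 to 98.0% against 92.8 to 97.9%, and the shares of all transcripts of Slc25a25, Slc25a44 and Slc25a21 overlapped.

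Genes that work beside the carriers were taken from 4 lists. Of 24 tested other mitochondrial transporters, 1 was higher and 4 were lower at the study threshold (20.5% of all genes were called in either direction). Mpc1, a subunit of the pyruvate carrier, fell by 0.33 on the log2 scale, Letm1, a cation exchanger, by 0.56, and the ABC transporters Abcb6 and Abcb10 by 0.38 and 0.36. Sfxn3, a serine carrier of the sideroflexin family, rose by 1.52, with 2.29, 1.38 and 1.52 CPM against 3.05, 8.05 and 3.71 CPM, highest in AAV8-TBG-Cre replicate 2 as Slc25a24 and Slc25a4 were. None of 16 genes of the import machinery that inserts carriers into the inner membrane passed.

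Among 13 enzymes that use the carried substrates, Got1 rose and Me1, Gpd2 and Cs fell, 1 and 3 genes against 12.0% and 8.41% of all genes. Me1, the cytosolic malic enzyme of the citrate-malate cycle, had 252, 210 and 182 CPM in AAV8-TBG-GFP and 92.8, 95.5 and 91.2 CPM in AAV8-TBG-Cre livers (−1.21 ± 0.14, edgeR adjusted p = 0.033). Gpd2, the mitochondrial arm of the glycerol phosphate shuttle, had 64.5, 69.6 and 76.8 CPM against 43.9, 41.7 and 43.5 CPM (−0.71 ± 0.10, edgeR adjusted p = 0.0363). Both were well separated and passed the adjusted threshold, which no carrier did in that fit. Got1, the cytosolic aspartate aminotransferase of the malate-aspartate shuttle, had 130, 202 and 103 CPM against 427, 216 and 410 CPM (1.28 ± 0.33, edgeR adjusted p = 0.0891). Cs, citrate synthase, fell by 0.34 on the log2 scale.

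Of 10 genes listed for mitochondrial content, Immt (a cristae organizing protein) fell by 0.32 on the log2 scale. The other 9 did not pass, among them the regulators Tfam and Ppargc1a, the chaperone Hspd1 and the protease Lonp1. The median log2 fold change of these 10 was −0.040, with 5 above and 5 below 0. Cs, counted with the enzymes above, fell by 0.34, and mitochondrial content itself was not measured. On log2(FPKM + 1) these 4 lists together had 6 genes higher and 3 lower (15.5% and 3.01% of all genes). In the count fit they had 2 higher and 8 lower (12.0% and 8.41%), so the split of all genes moved the same way with the scale.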

How the data were processed

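Bulk RNA-seq was performed on total RNA of 6 livers, which were grouped by the vector that their labels name. The authors deposited an expected count per RefSeq transcript, an unnormalized estimate that need not be whole, and, at transcript and gene level, FPKM, in which the fragments are divided by length and library size. The submitters' processing notes name HISAT2, Bowtie2, RSEM and mm10, and the study's methods name STAR, HTSeq and DESeq2; versions are not given in the sources used here. No step that marks strand is named, so overlapping antisense genes cannot be told apart, and fragments of near-identical copies may be divided between them.

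Expected counts were summed per NCBI gene ID and rounded. Library totals were 20356440 to 21010508, and no library of a group matched another within sampling noise, so none was treated as a copy (chi-square per gene of at least 24.9). edgeR 4.0.16 (R 4.3.3) was run with TMM, filterByExpr and the quasi-likelihood test on 13431 genes, with the vector as the only term and Benjamini-Hochberg adjustment. Standard errors were derived from the F statistic. Alternatives were DESeq2 1.42.0, other factors and filters, limma 3.58.1 on log2(FPKM + 1) or + 0.1, a covariate for the form of the library names, a replicate block and leaving out each library. The scripts were tested on simulated counts. The labels do not say that replicates are separate mice beyond their numbering, so p-values measure the spread between these samples. Names, positions and promoters come from RefSeq on GRCm38.p6.

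Values in every library are given for carriers past the study threshold, the 8 with the highest control FPKM, the uncoupling proteins and 5 paralog pairs; Slc25a20, Slc25a30 and Slc25a51 were named beyond that after their values were seen. The members and gene lists were chosen with earlier results of these data known. A further 2 carriers are not reported here.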

Additional observations from a re-analysis of the deposited data

How the results depend on the processing

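All 14 carriers past the study threshold kept their direction under the 16 alternatives, and 7 to 14 of them still passed. Slc25a10, Slc25a16, Slc25a24 and Slc25a42 passed in all 16, Slc25a35 in 15, and Slc25a4, Slc25a17 and Slc25a27 in 13. Slc25a25 and Slc25a47 passed in 12, Slc25a37 in 9, Slc25a46 in 8, Slc25a5 in 7 and Slc25a23 in 5. With 3 livers per group, carriers near 1 CPM and changes near the 1.2-fold limit were at the edge of what could be called. The replicate numbers did not pair the livers (correlations of same-numbered deviations 0.0091, −0.26 and 0.21, and not every liver correlated best with its own number), and the replicate block gave 3 carriers higher and 12 lower. The library name form as a covariate gave 3 higher and 9 lower.

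DESeq2 gave 4 carriers with an adjusted p under 0.05, against 0. With limma on log2(FPKM + 1), log2(FPKM + 0.1) and log2(FPKM + 1) without a filter, 6, 6 and 4 carriers were lower (3.01, 3.1 and 1.97% of all genes). In the same fits 4, 4 and 4 were higher (15.5, 16.4 and 10.9%). Of the other mitochondrial genes, 6, 6 and 7 were higher and 3, 3 and 3 lower in these fits. In the count fit they were 2 and 8 (12.0% and 8.41% of all genes). At a fold of 1.5, 4 carriers were lower and 3 higher, and at an adjusted p under 0.05, 0 were higher and 0 lower. Leaving out 1 library gave 1 to 3 carriers higher, 6 to 14 lower and 0 to 6 by adjusted p, and among the other mitochondrial genes 2 to 2 higher and 6 to 13 lower. The cause of these shifts was not tested.

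Signs turned only for 12 carriers that did not pass. On log2(FPKM + 1), with and without a filter, Slc25a11 stood at 0.063, Slc25a12 at 0.028, Slc25a13 at 0.16, Slc25a26 at 0.079, Slc25a28 at 0.063, Slc25a3 at 0.10, Slc25a38 at 0.040 and Slc25a39 at 0.085, and on log2(FPKM + 0.1), in the same order, at 0.065, 0.032, 0.16, 0.10, 0.067, 0.11, 0.044 and 0.085. Slc25a13 stood at 0.00034 with RLE factors, 0.056 with upper quartile factors (where Slc25a3 stood at 0.0027), 0.013 with at least 10 counts in every library and 0.0013 with the name form, and Ucp2 at −0.25 with the name form. With the replicate block, Ucp2 stood at −0.023 and Slc25a48 at −0.022, and Slc25a48 stood at −0.0055 in DESeq2 and −0.0092 without a filter. Leaving out 1 library gave −0.20 to 0.0065 for Slc25a39, −0.14 to 0.022 for Slc25a3, −0.14 to 0.069 for Slc25a13, −0.34 to 0.26 for Ucp2, −0.32 to 0.067 for Slc25a44, −0.23 to 0.15 for Slc25a48 and −0.21 to 0.24 for Slc25a29.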
